A study of Mus musculus with 4 samples.

Results

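The Ebf (early B cell factor) transcription factors Ebf1, Ebf2, Ebf3 and Ebf4 were taken by their symbols from the gene lists of 4 single-nucleus RNA sequencing (snRNA-seq) libraries of the mouse lateral septum (LS), and all 4 were among the 32285 genes listed. They were chosen by their level per cell class (CPM, counts per 1000000 unique molecular identifiers). The reason was that Ebf1 had been seen to be lower in oligodendrocyte precursor cells (OPCs) of nude and BALB/c mice. That contrast is therefore described without a test. The study had already named Ebf1 as lower in OPCs of these mice from the same data. Each library pooled LS tissue of 3 male mice aged 6 to 8 weeks, and no treatment was given. C57J 1 (batch 1) and C57J 2 (batch 2) came from C57BL/6JNifdc mice, and 1 library each, both of batch 2, came from BALB/c nude and BALB/c mice. In the nude stock Foxn1 is knocked out on a BALB/c background, so strain and all else that differs between the stocks cannot be told apart.

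Ebf proteins bind DNA as dimers, through a zinc-coordinating domain followed by an IPT domain and a helix-loop-helix region, at an inverted repeat written TCCCNNGGGA. Ebf1 is required for the B cell lineage and for the development of striatal neurons of the direct pathway, Ebf2 is known for brown fat and for cerebellar neurons, Ebf3 for neuronal development, and Ebf4 for olfactory sensory neurons. Ebf2 and Ebf3 are also known transcripts of Cajal-Retzius neurons, and Ebf1 of brain pericytes, the mural cells of capillaries.

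The 4 genes lie on 4 chromosomes of mm10. Ebf1 (ENSMUSG00000057098) is at chr11:44617317-45008091, Ebf2 (ENSMUSG00000022053) at chr14:67233292-67430918, Ebf3 (ENSMUSG00000010476) at chr7:137193673-137314445 and Ebf4 (ENSMUSG00000053552) at chr2:130295169-130370481. Ebf3 is on the minus strand and the others are on the plus strand. The RefSeq promoter table (build GRCm38.p6) matched 3 of the 4 symbols, with 2 start sites for Ebf1. The Ebf1 and Ebf4 windows printed below lie inside the gene spans given above, and the Ebf3 window lies directly upstream of its span. Base composition is thus compared between unlike positions. The promoters are shown because the members differ in base composition at their own starts and in whether these hold the inner part of the repeat that the family binds. The 250 bases before each start are given 5′ to 3′ on the gene's strand, and capitals mark the inner part of the repeat, CCCNNGGG.
Ebf1, chr11:44617850-44618099, + strand: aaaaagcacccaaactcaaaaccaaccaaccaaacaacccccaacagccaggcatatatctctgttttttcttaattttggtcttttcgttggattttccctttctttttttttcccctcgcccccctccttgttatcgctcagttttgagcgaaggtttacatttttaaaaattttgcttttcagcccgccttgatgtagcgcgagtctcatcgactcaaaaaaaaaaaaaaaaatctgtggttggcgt
Ebf1, chr11:44619978-44620227, + strand: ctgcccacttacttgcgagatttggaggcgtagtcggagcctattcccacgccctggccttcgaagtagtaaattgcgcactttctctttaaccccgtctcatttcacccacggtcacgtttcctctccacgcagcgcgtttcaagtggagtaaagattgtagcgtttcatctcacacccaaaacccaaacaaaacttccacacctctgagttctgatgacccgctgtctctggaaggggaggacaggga
Ebf3, chr7:137314446-137314695, - strand: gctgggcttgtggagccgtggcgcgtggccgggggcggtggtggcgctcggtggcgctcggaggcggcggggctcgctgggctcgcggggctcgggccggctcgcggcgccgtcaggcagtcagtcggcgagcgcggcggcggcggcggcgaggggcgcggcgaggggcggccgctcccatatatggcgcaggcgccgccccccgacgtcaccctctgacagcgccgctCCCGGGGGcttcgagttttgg
Ebf4, chr2:130295689-130295938, + strand: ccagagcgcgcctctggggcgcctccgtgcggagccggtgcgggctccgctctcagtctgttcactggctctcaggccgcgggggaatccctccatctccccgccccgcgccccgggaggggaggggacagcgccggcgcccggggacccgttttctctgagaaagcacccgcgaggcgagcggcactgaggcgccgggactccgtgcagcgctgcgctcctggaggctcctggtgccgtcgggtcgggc
The Ebf3 and Ebf4 windows were rich in G and C, at 80.0% and 75.2%, with 43 and 31 CpG dinucleotides. The Ebf1 windows had 40.0% and 52.0% G and C and 9 and 14 CpG dinucleotides, against medians of 52.4% and 6 over all 32851 promoter windows of the table. CCCNNGGG reads the same on both strands and occurred in 3882 of the 32851 windows (11.8%). Among the 4 Ebf windows it occurred in that of Ebf3, from 21 to 14 bases before the start. The longer TCCCNNGGGA, of which CCCNNGGG is a part, occurred in 256 windows (0.779%) and in none of the 4 Ebf windows.

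The libraries held between 72912922 (C57J 2) and 125998527 (BALB/c) UMIs (unique molecular identifiers, each marking 1 captured RNA molecule), and between 10913 and 13075 nuclei were kept per library, 49425 in all. BALB/c was the deepest, with a median of 8455 UMIs per kept nucleus against 4147 to 5420 in the others. Pairs of libraries shared 29 to 63 cell barcodes. Foxn1 had 2 to 6 UMIs in every library, so it could not check the nude label. Nuclei were clustered without the Ebf genes, and 16 classes were named by markers and are called X-like below, which left 6897 nuclei (14.0%) outside the named classes.

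The Ebf genes were sparse in the LS as a whole. Ebf1, Ebf2 and Ebf3 were concentrated in few classes, and Ebf4 was spread more widely. Levels are given in CPM, relative to all UMIs of the class or library. The chemistry reads 3′ ends and the levels are not per length, so they are compared between classes and libraries and not between genes. Ebf1 was at 19.9 CPM of the whole library in C57J 1 and 25.8 in C57J 2, against 14.2 in nude and 28.0 in BALB/c. Over the whole libraries Ebf4 had a narrow range, from 34.6 to 37.4 CPM, whereas Ebf2 ranged from 15.6 to 35.4 CPM and Ebf3 from 11.8 to 26.2 CPM. By class, each gene had 1 tested class whose 4 libraries all lay above every library of every other tested class. For Ebf1, Ebf2 and Ebf3 this was the same class, a cluster of Corin-high Slc17a6 neurons, and for Ebf4 it was the Lhx6 GABA neuron-like class.

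**Figure D1:**
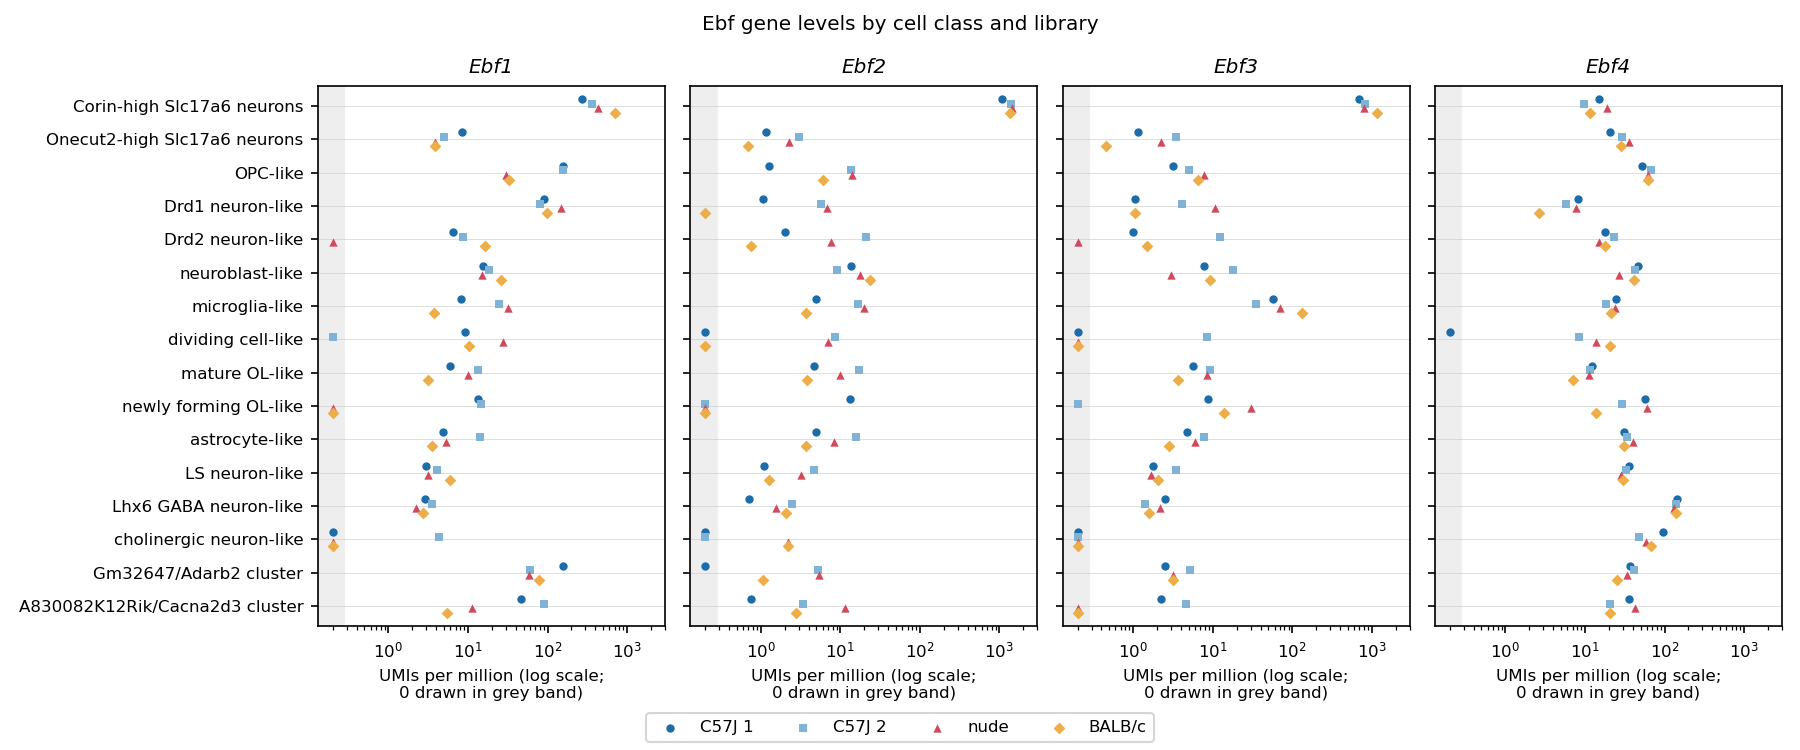
Levels of Ebf1, Ebf2, Ebf3 and Ebf4 (x axis, CPM on a log scale, with 0 drawn in the grey band) in the 14 tested classes and in 2 neuron clusters set apart for their Ebf1 level (y axis), with 1 point per library. Ebf2 and Ebf3 stand far above the other classes in Corin-high Slc17a6 neurons, where Ebf2 lies between 1081 and 1436, and Ebf1 in the OPC-like class lies at 157 in both C57J libraries, at 30.02 in nude and at 33.1 in BALB/c.

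OPCs divide and give rise to myelinating oligodendrocytes (OLs), and the OPC-like class held 464, 448, 486 and 496 nuclei of C57J 1, C57J 2, nude and BALB/c. Its defining markers were present in every library, with Pdgfra, the platelet-derived growth factor receptor of OPCs, at 758, 736, 811 and 1188 CPM, and Cspg4, which encodes the NG2 proteoglycan, at 306 to 410 CPM. Mog, a marker of mature OLs, was at 8.98 to 24.9 CPM. Ebf1 in OPC-like nuclei was at 157 CPM in C57J 1 (247 UMIs), 157 CPM in C57J 2 (186 UMIs), 30.02 CPM in nude (39 UMIs) and 33.1 CPM in BALB/c (92 UMIs). Both C57J libraries lay above both nude and BALB/c libraries, which is the contrast by which the gene was chosen. Such separation, in either direction, was found for 37.3% of the 10914 genes tested in this class, and 0.202% passed the test described below. The mean Ebf1 level was 157.0 CPM in C57J and 31.5 CPM in nude and BALB/c (n = 2 libraries each), a 4.98-fold difference. Ratios of single C57J libraries to single nude or BALB/c libraries ranged from 4.74 to 5.24, whereas the ratio was 1.005 between the C57J libraries and 0.908 between nude and BALB/c. In batch 2 alone, with C57J 2 against nude and BALB/c, the log2 ratio was -2.31.

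An Ebf1 UMI was detected in fewer OPC-like nuclei of nude and BALB/c. With each nucleus thinned to 1000 UMIs, which left out 2 nude nuclei, an Ebf1 UMI was found in 12.3% of C57J 1 nuclei (95% exact Clopper-Pearson interval 9.44 to 15.6), 13.8% of C57J 2 (10.8 to 17.4), and in 3.51% of nude (2.06 to 5.56) and 3.43% of BALB/c (2.01 to 5.43). Intervals here and below cover counting error only, and shares at 1000 UMIs leave out nuclei with fewer UMIs. Mature OL-like nuclei, taken as a background of free RNA, gave 0.131% to 0.932%, and astrocyte-like nuclei 0.226% to 1.22%. All 4 OPC-like shares were above the shares of these classes. By level, OPC-like nuclei of nude and BALB/c, at 30.02 and 33.1 CPM, were close to the highest value of 11 other tested classes. Those classes ran from 0 to 31.7 CPM with a median of 5.19, and nude microglia-like nuclei were the highest. The part of free RNA was not tested. The median depths before thinning were 2515.5 to 5388.5 UMIs in OPC-like, 1725 to 3842 in mature OL-like and 2008 to 4360.5 in astrocyte-like nuclei. Without thinning, the OPC-like shares were 33.6%, 28.3%, 5.76% and 10.5%.

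The Ebf1 UMIs were spread over many OPC-like nuclei in C57J and over fewer in the other libraries. In C57J 1 and C57J 2, 156 and 127 nuclei held at least 1 Ebf1 UMI, and the 5 nuclei with the most held 8.91% and 11.3% of all Ebf1 UMIs of the class. In nude and BALB/c, 28 and 52 nuclei held at least 1, and the top 5 held 35.9% and 25%. The highest count in a single nucleus was 5, 7, 6 and 6 UMIs. These counts were not thinned, and most nuclei held no Ebf1 UMI. They therefore cannot tell fewer nuclei with Ebf1 from a lower level in each nucleus. The summed OPC markers were at 12252 CPM in C57J 1 nuclei with an Ebf1 UMI and at 12190 CPM in those without, at 11969 and 12058 CPM in C57J 2, at 10643 and 11631 CPM in nude, and at 12638 and 12521 CPM in BALB/c. The class was named by these same markers, so high levels in nuclei with and without Ebf1 are no separate result about their identity.

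**Figure D2:**
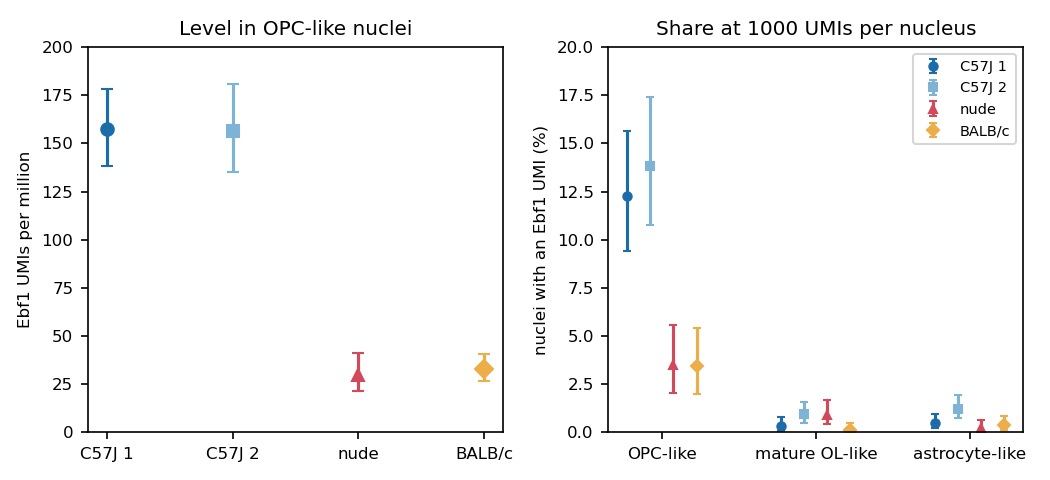
Left, Ebf1 level in OPC-like nuclei (y axis, CPM) by library, with exact 95% counting intervals. Right, share of nuclei with an Ebf1 UMI after thinning to 1000 UMIs per nucleus (y axis, percent) in OPC-like, mature OL-like and astrocyte-like nuclei by library, with exact 95% intervals. The OPC-like shares lie at 12.3% and 13.8% in C57J and at 3.51% and 3.43% in nude and BALB/c.

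Markers of other cells were counted in the same OPC-like nuclei. The 8 pericyte markers summed to 19.8 CPM in C57J 1 and 10.1 in C57J 2, against 23.1 in nude and 26.2 in BALB/c. Of these markers, only Kcnj8 and Higd1b were at 0 in all libraries. Atp13a5, another of the 8, was tested and is given below with the mural genes. Among nuclei with an Ebf1 UMI and those without, the pericyte sum was 30.6 and 13.8 CPM in C57J 1 and 8.36 and 10.9 CPM in C57J 2. It was 23.7 and 23.1 CPM in nude and 6.63 and 28.6 CPM in BALB/c, from 2 to 71 UMIs a value. The 7 endothelial markers summed to 7.01, 5.05, 3.85 and 2.51 CPM, with only Tie1 and Emcn at 0 in all libraries. The 7 fibroblast markers summed to 2.55 to 6.73 CPM, with only Col1a1 at 0 in all libraries. The 7 mature OL markers moved with the contrast, at 946 and 1071 CPM in C57J and 685 and 559 CPM in nude and BALB/c. Ebf1 in mature OL-like nuclei was at most 13.2 CPM. The 5 neuron markers summed to 3504, 4005, 4364 and 2140 CPM and overlapped between the groups. The part of these markers in the Ebf1 difference was not tested.

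The other family members did not show the pattern of Ebf1 in OPC-like nuclei. Ebf4 was at 51.6 CPM in C57J 1 and 67.3 in C57J 2, against 62.4 in nude and 62.2 in BALB/c, so the groups overlapped. Ebf2, at 1.27, 13.5, 13.9 and 6.11 CPM, also overlapped. Ebf3 was at 3.19 and 5.05 CPM in C57J and at 7.70 and 6.47 CPM in nude and BALB/c. The groups did not overlap, which in either direction was so for 37.3% of the 10914 genes tested in this class. These Ebf3 levels were within its range in mature OL-like and astrocyte-like nuclei (2.80 to 9.14 CPM). In nuclei with an Ebf1 UMI and in those without, Ebf4 was at 57.7 and 48.3 CPM in C57J 1, 86.4 and 59.1 in C57J 2, 71.0 and 61.8 in nude and 89.5 and 58.8 in BALB/c. The nuclei with Ebf1 gave few Ebf4 UMIs, at 32, 31, 6 and 27, and no difference was tested.

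Genes known to work with or under Ebf factors were then counted in OPC-like nuclei with edgeR's quasi-likelihood test (nude and BALB/c against C57J, 2 libraries each), with a gene called at an adjusted p below 0.05 and a log2 fold change beyond 0.5 in either direction. Over all genes, 22 of 10914 were called (0.202%), 15 of them lower (0.137%) and 7 higher (0.0641%) in nude and BALB/c, and the median log2 fold change was -0.01. The samples are libraries of pooled mice, so p-values measure the spread between libraries. The nude and BALB/c libraries are of different stocks and are not replicates of a condition. The C57J libraries are of different batches. The spread within each side therefore also holds the difference between stocks or between batches. Of 18 partners and regulators of Ebf proteins, 12 were tested and none was called, with a median log2 fold change of 0.05. The values furthest from 0 were those of Prdm16, a regulator of brown fat (-0.44 ± 0.36, SE), Tet2, which oxidizes methylated cytosine (0.24 ± 0.19), and Cnot3, a subunit of the CCR4-NOT deadenylase (-0.21 ± 0.28). Of 18 known Ebf targets in B cells, fat and olfactory neurons, 3 were tested and none was called, with Adcy3 and Gnal, of odorant signalling, at 0.17 and -0.12 and the transcription factor Foxo1 at 0.15. At an unadjusted p below 0.05, 0 of these 15 tests passed, against 7.50% over all genes. The lists share genes, and Foxo1 was counted in both.

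The genes of the OL lineage were counted in the same way. Among 22 lineage regulators, 21 were tested and none was called, with a median log2 fold change of 0.21. Myrf, the factor that drives myelin genes, was at 14.7, 13.5, 7.70 and 3.95 CPM in C57J 1, C57J 2, nude and BALB/c (log2 fold change -1.32 ± 0.43, adjusted p = 0.491). Sox4, a factor of immature cells, was at 32.5, 32.8, 39.3 and 59.3 CPM (log2 fold change 0.71 ± 0.26, adjusted p = 0.593). Of 14 genes of OPCs and newly forming OLs, 12 were tested and 1 was called. This was Lpcat2, an enzyme of phospholipid remodelling, which was at 197 and 216 CPM in C57J 1 and C57J 2 and fell to 53.1 CPM in nude and to 45.6 CPM in BALB/c (log2 fold change -1.999 ± 0.18, adjusted p = 0.00119). The study had already named Lpcat2 as lower in OPCs of nude and BALB/c mice in these data. Its call is therefore no separate result. The median of the list was 0.33, opposite in sign to its called gene. The list mixes OPC markers with Gpr17, Enpp6, Bmp4, Bcas1, Itpr2 and Fyn, which mark newly forming OLs.

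Of 12 myelin genes, 11 were tested in OPC-like nuclei and none was called, with a median log2 fold change of -0.72 and 6 genes at an unadjusted p below 0.05. Mbp, the gene of myelin basic protein, was at 318, 234, 124 and 133 CPM in C57J 1, C57J 2, nude and BALB/c (log2 fold change -1.03 ± 0.19, adjusted p = 0.0922). The study had also named Mbp as lower in OPCs of nude and BALB/c mice. Mal and Mobp, of the myelin membrane, had log2 fold changes of -1.22 and -1.03, with adjusted p of 0.14 and 0.21. The same median was 0.08 in mature OL-like nuclei and between -1.25 and -0.54 in the other 12 tested classes, neurons included. Of 15 genes of Drd1 neuron identity, 11 were tested in OPC-like nuclei and none was called, with a median of -0.23 and with Tac1, a neuropeptide gene, at -1.88 ± 0.38 (adjusted p = 0.104). Of 15 mural genes, Atp13a5 and Zic1 were tested and neither was called (1.57 ± 0.40 and -0.27 ± 0.26, adjusted p = 0.289 and 0.871). All 8 genes of RNA quality were tested and none was called, with a median of -0.18, and Malat1, a nuclear RNA, was at 17183, 23996, 23948 and 30636 CPM.

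The surroundings of the Ebf genes were examined within 500 kb. Of 62 genes there, 27 were tested in OPC-like nuclei and 1 was called. This was Gm12160 (ENSMUSG00000087089), a long intergenic noncoding RNA at chr11:45160943-45213656, on the strand of Ebf1 and 152.9 kb beyond its 3′ end. Gm12160 had 0 UMIs in both C57J libraries, 32 in nude (24.6 CPM) and 38 in BALB/c (13.7 CPM), which was at least 15.8-fold higher when a count of 0 over both C57J libraries was read as up to 3 UMIs (adjusted p = 0.0222). The coding neighbours of Ebf1, Rnf145 and Ublcp1, were not called in OPC-like nuclei, with log2 fold changes of -0.06 ± 0.18 and -0.15 ± 0.26.

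Gm12160 was seen almost wholly in the nude and BALB/c libraries, in classes with and without Ebf1. Over the 14 tested classes it had 2 UMIs in C57J 1 and 2 in C57J 2, against 672 in nude and 896 in BALB/c. It was also called in LS neuron-like nuclei, with 0, 1, 440 and 399 UMIs (log2 fold change 9.18 ± 0.56, adjusted p = 0.000944), where 2.3% of 18681 genes were called. It was called in Lhx6 GABA neuron-like nuclei (at least 14.2-fold higher, adjusted p = 0.0114, with 0.664% of genes called), Onecut2-high Slc17a6 neurons (at least 10.2-fold, adjusted p = 0.0426, with 0.568%) and Drd1 neuron-like nuclei (at least 10.1-fold, adjusted p = 0.0247, with 0.785%). Its level was highest in mature OL-like nuclei, at 29.2 CPM in nude (62 UMIs) and 39.8 CPM in BALB/c (253 UMIs) against 0 UMIs in both C57J libraries, where the adjusted p was 0.0522 and 0.00793% of 12607 genes were called. In those nuclei Ebf1 was between 3.15 and 13.2 CPM and overlapped between the groups.

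**Figure D3:**
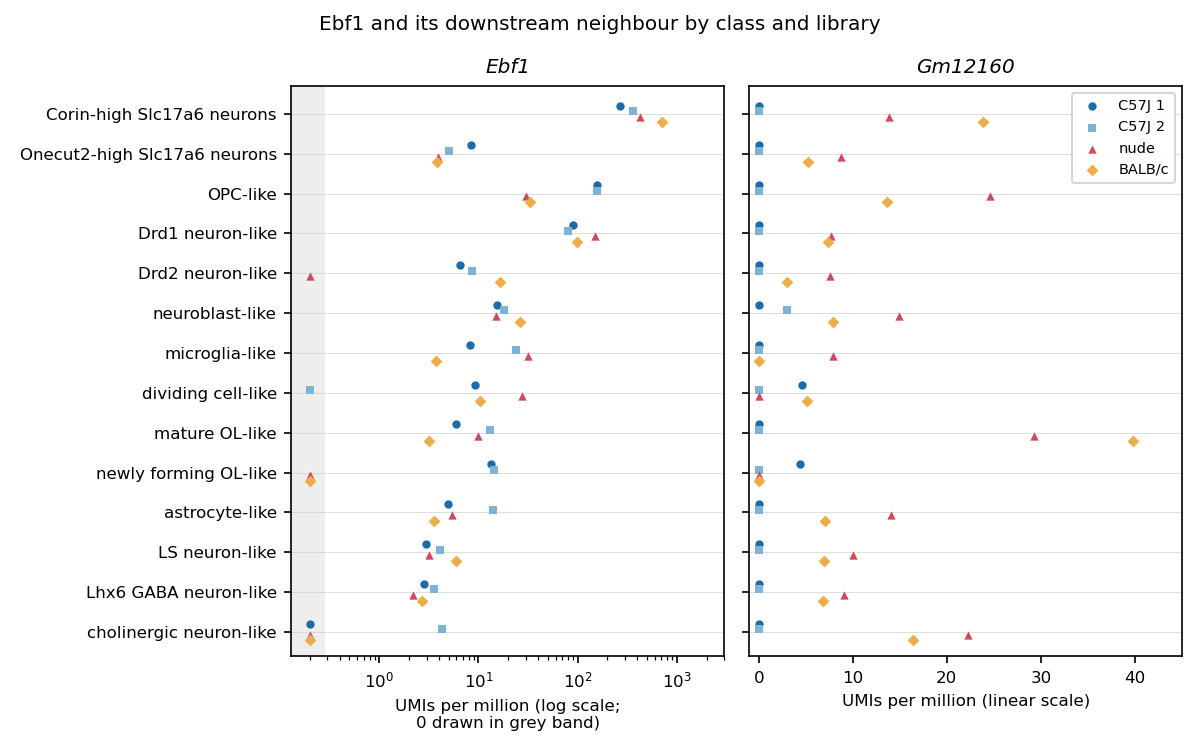
Levels of Ebf1 (left, CPM on a log scale, with 0 drawn in the grey band) and of its neighbour Gm12160 (right, CPM on a linear scale) in the 14 tested classes (y axis), with 1 point per library. Gm12160 is at or near 0 in both C57J libraries in every class shown and reaches 39.8 in mature OL-like nuclei of BALB/c, whereas Ebf1 differs between the same libraries by 4.98-fold in the OPC-like class.

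Around the other Ebf genes, no neighbour was called in OPC-like nuclei, and 5 were called in LS neuron-like nuclei, the largest class. Beside Ebf2, Pnma2 (312.3 kb away) rose from 14.7 and 13.5 CPM in C57J to 34.3 and 28.4 CPM in nude and BALB/c (log2 fold change 1.17 ± 0.14, adjusted p = 0.00875), and Dock5 (321.2 kb away) rose by 0.81 ± 0.11 on the log2 scale (adjusted p = 0.0162). Beside Ebf4, Idh3b, a subunit of isocitrate dehydrogenase 10.6 kb away, was at 44.5 and 36.3 CPM in C57J and fell to 23.5 and 20.3 CPM (log2 fold change -0.86 ± 0.14, adjusted p = 0.0338). Mrps26, of the mitochondrial ribosome, fell in LS neuron-like nuclei (log2 fold change -0.82 ± 0.14, adjusted p = 0.0354) and in Drd1 neuron-like nuclei (-1.58 ± 0.32, adjusted p = 0.0383). Avp, the vasopressin gene, rose in LS neuron-like nuclei from 0.06 and 0.30 CPM to 1.37 and 2.11 CPM (adjusted p = 0.0389). In LS neuron-like nuclei 40 neighbours were tested and 6, Gm12160 included, were called, against 2.3% over all genes. Ebf4 itself in these nuclei was at 35.5, 33.1, 28.3 and 29.7 CPM and was not called (log2 fold change -0.22 ± 0.11, adjusted p = 0.413).

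The Corin-high Slc17a6 neurons were the class in which 3 of the 4 members were found together. The class was a single cluster of 1027 nuclei (202, 334, 238 and 253 per library), and Ebf2, Ebf3, Corin and Ebf1 were the genes that led it, although the Ebf genes had been left out of the clustering. Slc17a6, the vesicular glutamate transporter, was at 246, 188, 209 and 363 CPM, and Eomes, a T-box factor of glutamatergic lineages, at 75.1, 56.8, 70.6 and 119 CPM. Ebf2 was at 1081 CPM in C57J 1 and 1404 in C57J 2, against 1436 in nude and 1365 in BALB/c, a range that overlapped between the groups (log2 fold change 0.20 ± 0.19, adjusted p = 0.99). Outside this class Ebf2 was between 0 and 23.7 CPM in the other 15 classes and clusters. Ebf3 was at 689, 814, 800 and 1157 CPM and also overlapped (log2 fold change 0.42 ± 0.23, adjusted p = 0.952).

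Ebf1 in the Corin-high neurons was at 268 CPM in C57J 1 and 363 in C57J 2, against 428 in nude and 716 in BALB/c. Both C57J libraries lay below nude and BALB/c, a separation shown in that direction by 14.8% of the 9954 genes tested in this class. The log2 fold change was 0.91 ± 0.28 (adjusted p = 0.745), so Ebf1 was not called, and 4 of the 9954 genes (0.0402%) were. Without the filter on low counts Ebf1 was called at 0.93 (adjusted p = 0.00342). With 1 library left out the log2 fold change ran from 0.42 to 1.27 for Ebf1 and from 0.07 to 0.71 for Ebf3. The highest values were those without the nude library. Each such fit leaves a single library on 1 side, without replication there. Median depth per nucleus was 4953, 3490.5, 3107 and 8354 UMIs, so BALB/c, with the highest Ebf1 and Ebf3 levels, was also the deepest.

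Single Corin-high nuclei carried several members at once. After thinning to 1000 UMIs per nucleus, 78.2% of C57J 1 and 81.7% of C57J 2, against 86.1% of nude and 94.5% of BALB/c nuclei held a UMI of Ebf1, Ebf2 or Ebf3. A UMI of all 3 was found in 10.4%, 13.2%, 10.5% and 20.6% of nuclei at that depth, and in 38.1%, 43.7%, 36.6% and 79.1% without thinning. The 3 genes were thus found in the same nuclei and not only in the same cluster. Ebf4 in this class was at 9.60 to 18.9 CPM, below its range in LS neuron-like nuclei (28.3 to 35.5 CPM). Inside the span of Ebf2, on the opposite strand, 4930438E09Rik was at 59.9, 110, 105 and 50.8 CPM. Use of strand in the counting was not given in the sources used here. Whether counts of Ebf2 and of this gene share reads was not checked.

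**Figure D4:**
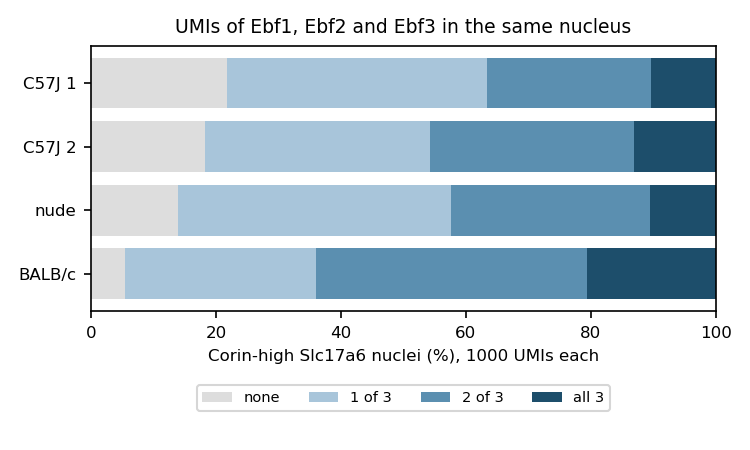
Corin-high Slc17a6 nuclei (x axis, percent of nuclei after thinning to 1000 UMIs each) with a UMI of none, 1, 2 or all 3 of Ebf1, Ebf2 and Ebf3, by library (y axis). All 3 genes were seen in 10.4% (C57J 1), 13.2% (C57J 2), 10.5% (nude) and 20.6% (BALB/c) of nuclei.

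Ebf1 separated the main types of striatal projection neuron. Drd1 marks neurons of the direct pathway and Drd2 those of the indirect pathway, and nuclei of both types were found in these libraries. In Drd1 neuron-like nuclei (446, 238, 205 and 189) Ebf1 was at 89.3 CPM in C57J 1 and 80.5 in C57J 2, against 149 in nude and 98.5 in BALB/c. In Drd2 neuron-like nuclei (321, 168, 52 and 114) it was at 6.53, 8.64, 0 and 16.5 CPM, so the ranges of the 2 classes did not overlap. At 1000 UMIs per nucleus, 6.05% to 11.7% of Drd1 neuron-like and 0% to 0.935% of Drd2 neuron-like nuclei held an Ebf1 UMI, and the 0 of nude (0 of 52 nuclei) allows a share of up to 5.77%.

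Both C57J libraries lay below nude and BALB/c for Ebf1 in Drd1 neuron-like nuclei, as did 17.6% of the 10578 genes tested there. BALB/c was 1.10-fold above C57J 1. The 5 nuclei with the most held 37.8% of the Ebf1 UMIs of the class in BALB/c. In C57J 1, C57J 2 and nude they held 19.05%, 24.2% and 22.7%. The BALB/c level thus rested in good part on few nuclei. The log2 fold change was 0.52 ± 0.20 (adjusted p = 0.454), so Ebf1 was not called, and 83 genes (0.785%) were. With 1 library left out the log2 fold change of Ebf1 ran from 0.225 to 0.81, highest without the BALB/c library. Such a fit leaves a single library on 1 side. Of the 15 genes of Drd1 neuron identity, all 15 were tested in this class and none was called, with a median log2 fold change of 0.04. The 7 Drd1 neuron markers summed to 2396, 2006, 1584 and 2242 CPM in C57J 1, C57J 2, nude and BALB/c. Among them Drd1 was at 108, 84.6, 54.1 and 84.9 CPM and Rarb at 1883, 1629, 1212 and 1702 CPM. All were lowest in nude, where Ebf1 was highest, and their part in the Ebf1 level was not tested.

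Among the neuron clusters without a class name, 2 were set apart because their pooled Ebf1 level reached 20 CPM, so their levels are a description. The Gm32647 and Adarb2 cluster (1104 nuclei) had Ebf1 at 157, 60.1, 59.1 and 77.7 CPM in C57J 1, C57J 2, nude and BALB/c, and C57J 1 stood above the other libraries. The A830082K12Rik and Cacna2d3 cluster (782 nuclei) had Ebf1 at 46.3, 90.9, 11.3 and 5.52 CPM, from 62, 214, 5 and 8 UMIs. There both C57J libraries were above nude and BALB/c, but the cluster was unevenly filled, with 191, 383, 77 and 131 nuclei. The order of median Ebf1 levels leaves out the small vascular-like and ependymal-like classes. In this order the OPC-like and Drd1 neuron-like classes and these 2 clusters followed the Corin-high neurons. Each of the 4 overlapped with the next. In the other 11 tested classes Ebf1 was between 0 and 31.7 CPM, with a median of 5.19 over class and library pairs. Within the LS neuron-like class, single clusters also passed 20 CPM when pooled. The Tafa1 and Nts cluster (923 nuclei) had Ebf1 at 14.5 CPM in C57J 1 and 1.95 in C57J 2, against 6.98 in nude and 67.4 in BALB/c, from 39, 3, 12 and 190 UMIs, so its level came mostly from BALB/c. The Dach2 and Lama3 cluster (644 nuclei) had Ebf1 at 4.47 and 7.33 CPM in C57J and at 33.8 and 34.97 CPM in the nude and BALB/c libraries, from 5, 7, 45 and 64 UMIs. There nude and BALB/c were the higher ones, the opposite order to the OPC-like class. Both clusters were chosen after their values were seen and were not tested.

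Ebf3 had a second and lower site in microglia-like nuclei (329, 391, 323 and 286), the resident macrophages of the brain. Their marker Cx3cr1, the fractalkine receptor, was at 716, 529, 505 and 1129 CPM. Ebf3 was at 57.1 CPM in C57J 1 (35 UMIs), 35.4 in C57J 2 (19 UMIs), 69.4 in nude (35 UMIs) and 133 in BALB/c (107 UMIs), above its level in every library of the 14 lower classes and clusters (0 to 30.5 CPM). At 1000 UMIs per nucleus 7.65%, 3.80%, 6.08% and 8.39% of microglia-like nuclei held an Ebf3 UMI, against 0.326% to 1.15% of mature OL-like nuclei. Nuclei with fewer UMIs were left out of these shares, so they do not cover all nuclei listed above. The median depth of the microglia-like clusters, with libraries pooled, was 1511 and 1795.5 UMIs. Both C57J libraries lay below nude and BALB/c, as for 14.0% of 8954 genes tested, and the log2 fold change was 1.18 ± 0.40 (adjusted p = 0.862). No gene was called by edgeR in this class (0 of 8954, 0.0%), with 434 genes at an unadjusted p below 0.05, and DESeq2 called 14. With 1 library left out, which leaves a single library on 1 side, the log2 fold change of Ebf3 ran from 0.62 to 1.57. The 7 fibroblast markers summed to 13.1, 7.45, 21.8 and 95.7 CPM in these nuclei and were highest in the library with the most Ebf3, and their part in the result was not tested.

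Ebf4 was the member with the widest distribution. In Lhx6 GABA neuron-like nuclei (315, 362, 421 and 417) it was at 144 CPM in C57J 1 and 140 in C57J 2, against 130.5 in nude and 141 in BALB/c. Lhx6, a factor of neurons from the medial ganglionic eminence, was at 45.4 to 57.2 CPM there. The class joined clusters of unlike pooled levels. The Vwc2l and Sox6 cluster (1089 nuclei) had Ebf4 at 163 CPM and Lhx6 at 45.8 CPM. The Adarb2 and Sfta3-ps cluster (426 nuclei) had Ebf4 at 38.1 CPM and Lhx6 at 82.8 CPM. The high Ebf4 level of the class thus came from the former cluster, where Lhx6 was lower. Ebf4 overlapped between the groups in this class (log2 fold change -0.05 ± 0.11, adjusted p = 0.935). Among the tested classes the cholinergic neuron-like class followed, at 95.4, 47.7, 57.8 and 66.9 CPM from 41, 24, 49 and 54 nuclei, and it overlapped with the OPC-like class. Clusters without a class name are outside this order. The Gm12068 and Gpr149 neuron cluster (416 nuclei, 314 of them of C57J 1) had a pooled Ebf4 level of 79.8 CPM. The pooled level of the cholinergic neuron-like class was 69.6 CPM. On the log2 scale the gap between the Lhx6 GABA and cholinergic classes was 1.17, and 0.30 when nuclei were thinned to 1000 UMIs. In Drd1 neuron-like nuclei Ebf4 was at 2.62 to 8.15 CPM. Ebf4 was thus low in the Corin-high and Drd1 neuron-like nuclei, both of which held Ebf1. It was not low wherever Ebf1 was found, since the OPC-like class had Ebf4 at 51.6 to 67.3 CPM. The Gm32647 and Adarb2 cluster, also with Ebf1, had Ebf4 at 25.4 to 41.0 CPM.

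**Figure D5:**
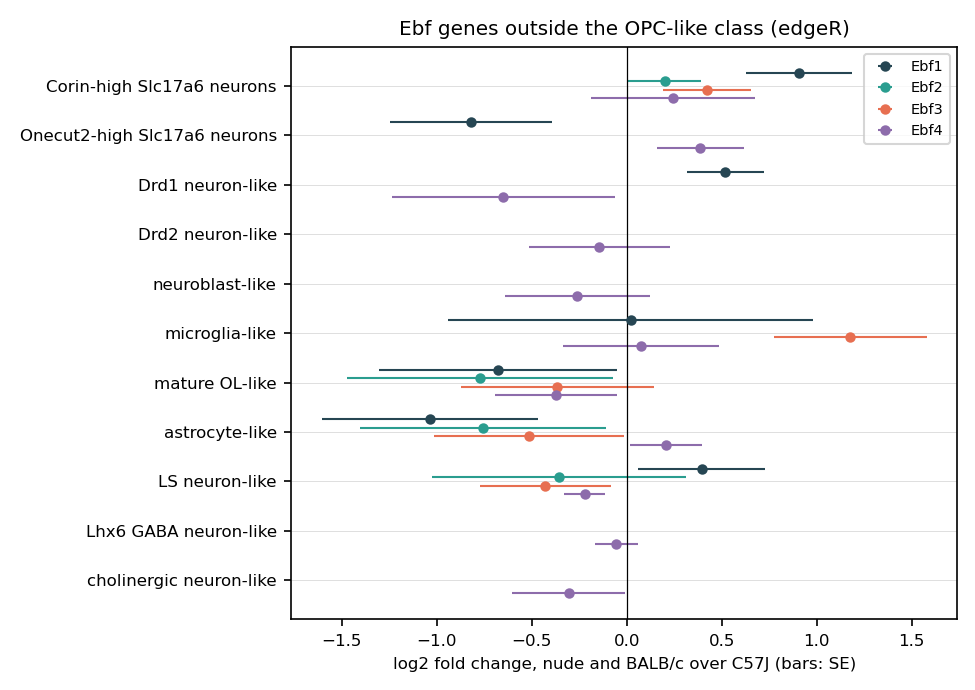
Fitted log2 fold changes of the Ebf genes, nude and BALB/c over C57J (x axis, points with SE bars, edgeR, 2 libraries in each group), in the tested classes other than the OPC-like class in which they passed the filter on low counts (y axis). None of the 27 values passed the threshold. The highest are those of Ebf3 in microglia-like nuclei (1.18) and Ebf1 in Corin-high Slc17a6 neurons (0.91). The lowest are those of Ebf1 in astrocyte-like nuclei (-1.035) and in Onecut2-high Slc17a6 neurons (-0.82).

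Outside OPC-like nuclei, the members passed the filter on low counts in 27 gene and class pairs, in 11 of the 13 other tested classes, and were not called in any of them by edgeR or DESeq2. These fits use the same libraries as the contrast by which Ebf1 was chosen. An unadjusted p below 0.05 was found for 3 of the 27 pairs by edgeR and for 2 of 51 by DESeq2. Over all genes of these classes, 739 of 128619 tests were called by edgeR (0.575%), and 8.33% had an unadjusted p below 0.05, against 2.03% by DESeq2. The 3 pairs were Ebf1 in Corin-high neurons and in Drd1 neuron-like nuclei and Ebf3 in microglia-like nuclei. In all 3 the nude and BALB/c libraries were the higher ones. Fold changes of the other sign were found as well. The lowest by edgeR were those of Ebf1 in astrocyte-like nuclei (-1.035 ± 0.57, adjusted p = 0.773) and in Onecut2-high Slc17a6 neurons (-0.82 ± 0.43, adjusted p = 0.6).

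Genes whose levels were most like those of the Ebf genes were sought over 67 class and library pairs in 18 classes and clusters, among 12450 genes. These correlations describe points that share libraries and depth. For Ebf2 and Ebf3 the Corin-high neurons lay far above every other class, and their weight in r was not measured. Pgm5, Samd3, Adgrd1 and Postn, named below, were also among the genes that led the Corin-high cluster. The points held the vascular-like class of C57J 2 only, with 10 nuclei and Ebf1 at 1159 CPM. Its weight in r was not measured either. Ebf1 was most like Tgfbr3, the betaglycan co-receptor of TGF-beta (Pearson's r = 0.658), Nr2f2, an orphan nuclear receptor (0.61), Pgm5 (0.575), Nsg2 (0.533) and Arxes2 (0.519). Ebf2 was most like Eomes (0.863), its antisense neighbour 4930438E09Rik (0.839), Ebf3 (0.814), the adhesion receptor gene Adgrd1 (0.793) and Postn (0.781). Ebf3 was most like Eomes (0.82), Ebf2 (0.814), Samd3 (0.739), Sln, a regulator of the calcium pump (0.721), and 4930438E09Rik (0.72). Ebf4 had a different set, led by Limk1, a kinase of the actin cytoskeleton (0.742), Brinp3 (0.695), Plpp4 (0.686), Gm29514 (0.682) and Grin3a, a subunit of NMDA receptors (0.67). No Ebf gene was among the 5 genes most like Ebf1 or Ebf4.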

How the data were processed

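LS nuclei of 4 libraries were profiled with 10x 3′ snRNA-seq. The authors aligned reads with Cell Ranger 7.0.1 (mm10) and deposited raw UMI counts per gene and barcode. Whether introns or strand were used is not given in the sources used here. The quality limits of the study (over 200 and under 6000 genes, over 300 and under 50000 UMIs, mitochondrial share under 2%) were applied, and 9.66% to 11.9% of nuclei were removed as predicted doublets. Libraries were clustered together (Python 3.11.15, leidenalg 0.10.2, resolution 1, then 1.5 to 2 within groups) with 6 neighbours from every library and without the Ebf genes, their neighbours within 500 kb, and 151 genes that differed between the strains. Naming limits were set after the clusters were seen. UMIs summed per library and class were compared with edgeR 4.0.16 (filterByExpr, TMM, quasi-likelihood test, Benjamini-Hochberg adjustment over all genes), or DESeq2 1.42.0, in R 4.3.3. The nude and BALB/c libraries, 1 each, were not tested alone, and 2 libraries against 2 allow no exact permutation test to pass 0.05.

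Members, gene lists and clusters were chosen with earlier results of these data known. Named genes were the Ebf genes, their called neighbours or those furthest from 0, called list genes or otherwise up to 3 of each list furthest from 0, and the 5 genes most like each Ebf gene, and 1 gene that this rule names is not reported here. Fits were checked on simulated data. Gene positions are from GENCODE vM21 (GRCm38), matched by identifier.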

Additional observations from a re-analysis of the deposited data

Results flagged for a closer look

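Ebf1 was flagged because its difference between the mouse backgrounds ran in opposite directions in different classes. Both C57J libraries lay on one side of both nude and BALB/c libraries each time. Such separation, in either direction, was found for 37.3% of genes tested in OPC-like nuclei. Both C57J libraries lay below for 14.8% of genes in Corin-high neurons and 17.6% in Drd1 neuron-like nuclei. How many genes change direction between classes was not counted. The log2 ratio of mean levels, nude and BALB/c over C57J, was -2.315 in OPC-like nuclei, 0.858 in Corin-high Slc17a6 neurons and 0.542 in Drd1 neuron-like nuclei (n = 2 libraries on each side). The difference between classes was not tested. The OPC-like value is the one by which the gene was chosen, and neither neuronal value was called by edgeR (adjusted p = 0.745 and 0.454). The same 4 libraries give all 3 values, and BALB/c was the deepest of them. In Drd1 neuron-like nuclei BALB/c was 1.10-fold above C57J 1, and 5 of its nuclei held 37.8% of its Ebf1 UMIs.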

How the results depend on the processing

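No paired analysis was possible because replicate numbers exist only within C57J. The log2 ratio of Ebf1 in OPC-like nuclei (-2.315) was -2.174 with predicted doublets kept, -2.633 with a marker gate in place of clusters, -2.022 after thinning to 1000 UMIs, -2.21 with DESeq2, -2.204 without the filter on low counts and -2.222 with TMM scaling, and leaving out 1 library gave -2.387 to -2.248. The log2 ratio of mean shares of OPC-like nuclei with Ebf1, nude and BALB/c over C57J, was -1.912 at 1000 UMIs and -2.489 at 2000. Outside OPCs, 0 Ebf genes were called, 1 without the filter, and 0 to 3 with 1 library left out (3 without nude, 1 without BALB/c). Genes called in OPC-like nuclei went from 22 to 185 without the filter, 56 with doublets kept, and 30 to 403 with 1 library left out (65 without C57J 1, 121 without C57J 2, 403 without nude). Called neighbours went from 1 to 2 without the filter (1 to 2 with 1 library left out, 2 without C57J 2), and called list genes from 1 to 11 (2 to 24, with 3 without C57J 1, 6 without C57J 2, 24 without nude and 2 without BALB/c). The log2 gap between the highest and the next class for Ebf2 (6.466) was 6.222 at resolution 2, 6.172 with a second seed, 6.799 thinned and 6.884 as a mean over nuclei. For Ebf3 (3.673) it was 4.071 with doublets kept. For Ebf4 (1.17) it was 0.925 with doublets kept, 0.872 at resolution 2, 0.299 thinned and 1.045 as a mean over nuclei. For Ebf1, all 6 alternatives stayed within 1 SD, but in 5 (all but the stricter nucleus limits) the next class was the Drd1 neuron-like and not the OPC-like one. Each count with 1 library left out rests on a single library on 1 side, so it has no replication there. Causes were not tested. Pools of mice, 2 libraries a side, and few UMIs per nucleus limit all comparisons, and C57J 1 is the only library of batch 1.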

Other observations

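A small vascular-like class held 22 nuclei, with 4 and 10 in C57J 1 and C57J 2 and 7 and 1 in nude and BALB/c. These had 4, 20, 6 and 7 Ebf1 UMIs, which corresponds to 457, 1159, 887 and 6660 CPM, the last from a single nucleus with an exact 95% interval of 2678 to 13723. Ebf2 and Ebf3 had no UMI there. The class depended on the clustering. With a second seed it held 220 nuclei (24, 101, 72 and 23), with pooled levels of 186 CPM for Ebf1, 42.4 for Ebf2 and 25.4 for Ebf3. At resolution 2 it again held 22 nuclei (4, 10, 5 and 3), with Ebf1 at 822 CPM and Ebf2 and Ebf3 at 24.9 CPM each. In 37 ependymal-like nuclei, the ciliated lining of the ventricles, Ebf1 had 0 UMIs in both C57J libraries, 5 in nude and 8 in BALB/c, and the 0 counts allow up to 162 and 135 CPM, so a difference was not detectable at this depth. Both classes had too few nuclei to be tested.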
